A study of Mus musculus with 4 samples.

Results

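The genes that encode the proteins of neutrophil granules were examined for open chromatin in neutrophils lacking the long non-coding RNA Morrbid (KO) and in wild-type neutrophils (WT). A list of 34 genes was taken, and every peak of the consensus table whose nearest gene is one of them was used, whether at a promoter or far from one. This gave 56 of 23595 peaks, assigned to 23 of the 34 genes, while 11 genes had no peak in the table as used here. The data are ATAC-seq, in which the Tn5 transposase cuts and tags accessible DNA, so that the normalised signal of a peak reports how open that stretch was. Neutrophils were flow sorted from bone marrow, and 2 libraries came from Morrbid-deficient cells (C57BL6 background) and 2 from WT cells of the C57BL6 strain. Per genotype 50000 cells entered the transposition, which was done in duplicate, and the labels state no age, sex, allele or number of animals. The p-values below therefore measure only the spread between libraries, which may be technical.

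Granule proteins are made in a fixed order as a neutrophil matures. Promyelocytes fill the primary, or azurophil, granules with myeloperoxidase (Mpo) and serine proteases such as neutrophil elastase (Elane), proteinase 3 (Prtn3) and cathepsin G (Ctsg). Myelocytes and metamyelocytes then make the specific granules, which hold lactoferrin (Ltf), the cathelicidin Camp, lipocalin 2 (Lcn2) and neutrophilic granule protein (Ngp), and later the gelatinase granules with Mmp9. Many of these genes are switched off again as the cell moves on, and the transcription factors PU.1, C/EBP alpha and C/EBP epsilon are known for driving them. Here 12 genes were treated as primary and promyelocyte-stage genes and 22 as later genes.

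The share of promoters with each factor's motif was computed first. RefSeq promoters (GRCm38.p6) were matched for 27 of the 34 genes, and the 250 bases before each transcription start site (TSS) were searched on both strands. The unmatched genes were Arg1, Hp, Mmp9, Orm1, Prss57, Serpinb1a and Wfdc21. A C/EBP motif, TTGCNNAA, was found in 9 of 27 granule promoters (33.3%), against 9.56% of all 32851 promoters. It was found in 1 of 10 primary promoters, that of Fcnb, and in 8 of 17 later ones. A PU.1 motif, GAGGAAGT, was found in 7 of 27 (25.9%), against 2.44% of all promoters, with 4 of 10 primary promoters (Mpo, Elane, Prtn3 and Ctsc) and 3 of 17 later ones (Mmp8, Olfm4 and Itgb2l). The shorter ETS core AGGAAG, which every PU.1 match contains, was found in 21 of 27 (77.8%), against 29.5% of all promoters. The RUNX motif TGTGGT was found in 18.5% of granule promoters and 14.05% of all, and the TATA box TATAAA in 7.41% and 12.4%. A match describes letters in this window, not a bound site.

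Shown here are the promoters of the 3 genes whose promoter peak differed between KO and WT (Lyz2, Padi4 and Ctsc), and of the primary and the later gene with the strongest promoter in WT (Calr and Adam8). Each is written 5′ to 3′ on the gene's own strand and ends at the base before the TSS, and capitals mark the motif matches.
Lyz2 (chr10:117282273-117282522, minus strand): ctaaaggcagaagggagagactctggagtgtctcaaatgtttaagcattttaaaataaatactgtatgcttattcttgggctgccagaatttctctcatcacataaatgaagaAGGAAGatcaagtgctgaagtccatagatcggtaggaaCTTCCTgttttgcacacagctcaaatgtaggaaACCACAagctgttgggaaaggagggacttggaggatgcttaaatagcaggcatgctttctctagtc
Padi4 (chr4:140774204-140774453, minus strand): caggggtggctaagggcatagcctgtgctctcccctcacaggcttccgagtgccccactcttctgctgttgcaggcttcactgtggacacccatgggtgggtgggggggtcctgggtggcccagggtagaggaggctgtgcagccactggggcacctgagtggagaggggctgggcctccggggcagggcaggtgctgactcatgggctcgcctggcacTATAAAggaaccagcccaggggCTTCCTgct
Ctsc (chr7:88277835-88278084, plus strand): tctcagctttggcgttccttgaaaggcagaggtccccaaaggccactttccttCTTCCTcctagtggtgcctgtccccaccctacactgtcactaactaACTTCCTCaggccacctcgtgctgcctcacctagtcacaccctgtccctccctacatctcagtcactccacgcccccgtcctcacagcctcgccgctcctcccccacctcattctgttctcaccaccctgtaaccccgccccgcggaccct
Calr (chr8:84846932-84847181, minus strand): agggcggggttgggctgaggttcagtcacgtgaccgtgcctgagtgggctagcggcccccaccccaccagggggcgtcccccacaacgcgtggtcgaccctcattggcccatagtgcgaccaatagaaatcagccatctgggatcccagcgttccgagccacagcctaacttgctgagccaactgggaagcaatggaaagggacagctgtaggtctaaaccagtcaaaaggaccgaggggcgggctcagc
Adam8 (chr7:139992563-139992812, minus strand): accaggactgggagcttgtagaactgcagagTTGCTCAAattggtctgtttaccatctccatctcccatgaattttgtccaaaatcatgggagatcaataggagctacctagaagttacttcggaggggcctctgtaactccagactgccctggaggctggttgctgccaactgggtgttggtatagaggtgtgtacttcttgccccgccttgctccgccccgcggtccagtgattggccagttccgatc
In Lyz2 the capitals are ETS cores starting 137 and 99 bases before the TSS and a RUNX motif starting 66 bases before it. Padi4 has a TATA box starting 31 bases and an ETS core starting 9 bases before the TSS. Ctsc has an ETS core starting 197 bases before the TSS and, 151 bases before it, the PU.1 motif on the opposite strand. Adam8 has a C/EBP motif starting 219 bases before the TSS, and Calr has none of the 5 motifs. The sequences are from a later assembly than the peaks, which the submitters' processing notes place in mm9, so the coordinates in this paragraph do not compare with those below.

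Sequencing depth followed genotype. Taking the step between the values of a library as 1 read, the peaks held 6182922 and 7930547 reads in the KO libraries and 3577922 and 3803711 in the WT libraries. The KO libraries had 1 read each in both intronic Morrbid peaks (listed under the older symbol Gm14005), against 113 and 111 WT reads in the first and 82 and 86 in the second. This was the lowest value of each KO library at any peak, and whether it stands for an observed read is not stated. The neutrophil markers had peaks at 7 of 8 genes, and the promoters of S100a8 and S100a9, the calprotectin genes, were open in every library (791 and 797 in KO and 799.8 and 701 in WT at S100a8, 906 and 954 in KO and 895 and 688 in WT at S100a9). Ly6g, the usual surface marker of mouse neutrophils, had no peak in the table as used here. No promoter peak was listed for the B cell, T and NK cell, or eosinophil and basophil markers, which had a peak at 1 of 5, 2 of 5 and 3 of 6 genes. The monocyte and macrophage list had a peak at 4 of 6 genes and the erythroid list at 2 of 4, each with 1 promoter peak. The progenitor markers had a peak at 5 of 5 genes, with summed promoter signal of 487 and 431 in KO and 508 and 561 in WT.

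The primary granule genes were largely missing from the open chromatin catalogue. Of the 12 primary and promyelocyte-stage genes, 3 had any peak. These were Calr, the chaperone calreticulin, Ctsc, the dipeptidyl peptidase that activates the granule serine proteases, and Serpinb1a, an inhibitor of those proteases. The 9 without a peak were Mpo, Elane, Prtn3, Ctsg, the serine protease Prss57, the ficolin Fcnb, the cystatin Cst7, and the membrane proteins Ms4a3 and Nkg7. By contrast, 20 of the 22 later genes had a peak, and the exceptions were the olfactomedin Olfm4 and the arginase Arg1. Some of the missing genes lie beside a gene with a peak and others do not, by the gene order of RefSeq GRCm38.p6. Tspoap1 lies next to Mpo and had 1 peak, Apmap lies next to Cst7 and had 2, and Lim2 lies next to Nkg7 and had 1. Akap7 and Med23 flank Arg1 and had 7 and 1. Col5a1 lies next to Fcnb and had 1, and Pcdh17 lies next to Olfm4 and had 3. Fstl3 had 1 peak and lies next to Prss57, which shares its stretch without peaks with Elane and Prtn3. Around Elane, the nearest genes with a peak were Med16 and Fstl3, 2 and 7 genes away, and around Prtn3 the same genes, 3 and 6 away. For Ctsg they were 7 and 10 genes away, and for Ms4a3 5 and 10. A peak missing from a consensus list may still have had signal below the level at which peaks were called, which is not measured here. Each peak is listed under its nearest gene only, so a site of a missing gene may be listed under a neighbour. The share of all annotated genes with a peak is not given here, so neither class is set against it.

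Most of the 23 represented genes had few peaks, with a median of 2 per gene against 1 over all 11693 genes in the table. Ctsc, with 8 peaks, was the exception, a number reached or passed by 287 genes (2.45%). Of the 56 peaks, 24 were intergenic (42.9%, against 31.4% of all peaks), 13 were annotated as promoter (23.2% against 24.5%), 8 as intron (14.3% against 32.4%) and 3 as transcription termination site, or TTS (5.36% against 1.42%). Repeats held 8 of the 56 (14.3% against 10.8% of all peaks). A promoter peak was one annotated as promoter or centred at most 1000 bp from a TSS, and the nearest was kept for each gene, which gave 19 genes a promoter peak. The 4 represented genes without one were Lyz1, Chil3, Mmp9 and Wfdc21.

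In WT neutrophils, most granule promoters with a peak were above the median of all promoters in signal per kb of peak length. Levels were compared on the linear scale of the deposited signal. Median peak width was 1121 bp at primary, 701 bp at later and 815 bp at all gene promoters, so the comparison may depend on this division. The median WT signal was 408 per kb over the 3 primary promoters and 361 over the 16 later promoters, against 299 over the promoters of all 8776 genes, and 13 of the 19 lay above this last value. The 3 primary promoters were those of Calr, Ctsc and Serpinb1a, since Mpo, Elane, Prtn3 and Ctsg had no peak. They included both ends of the range of the 19. Calr was the most open, with 774 and 782 per kb in the KO libraries and 709.6 and 793 in the WT libraries, which placed it above 91.7% of all gene promoters in WT. Serpinb1a was the least open, with 222 and 245 per kb in KO and 219 and 191 in WT, above 23.4% of promoters. The 6 least open promoters in WT after it were Mmp25, Pglyrp1, Ltf, Lcn2, Itgb2l and, just above the median of all promoters, Orm1. The order then ran through Stfa2l1, Camp, Lyz2, Retnlg, Ctsc, Slpi, Padi4 and Mmp8 to Hp, Ngp, Adam8 and Calr. Of the 18 neighbouring pairs in this order, 13 had overlapping WT libraries. The pairs that stood apart were Serpinb1a and Mmp25, Stfa2l1 and Camp, Lyz2 and Retnlg, Mmp8 and Hp, and Adam8 and Calr.

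**Figure D1:**
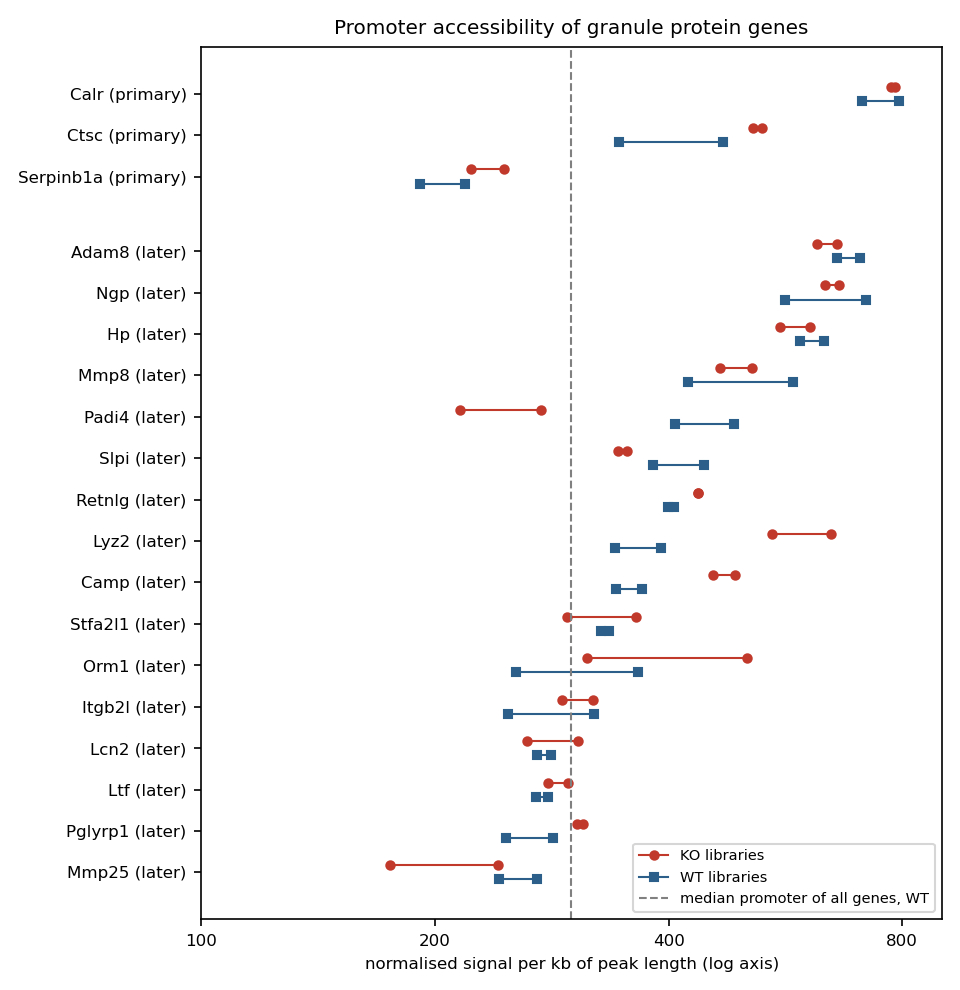
Normalised signal per kb of peak length (log axis) at the promoter peak of 19 granule protein genes, with 1 point per library, KO circles above WT squares, genes in the order of their WT level within the primary and the later class and the dashed line at the WT median of all gene promoters (299). Calr, Adam8, Ngp and Hp lie to the right in both genotypes, Padi4 lies lower in both KO libraries, and Lyz2 lies higher in both.

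Away from promoters, the sites of primary genes were mostly weak, but they came from 2 genes only, with 7 peaks at Ctsc and 2 at Serpinb1a. The 9 distal peaks of primary genes had a median WT signal of 137 per kb and the 28 of later genes 229, against 210 over all 14511 distal peaks. The most open distal site was 4428 bp upstream of Ngp, at 749 per kb, above 97.6% of distal peaks. Distal peaks at Retnlg (1621 bp upstream, 478 per kb) and Mmp9 (5083 bp upstream, 457 per kb) also lay high, at 91.01% and 89.9%. The weakest was 70457 bp upstream of Ctsc, at 72.9 per kb. The peak over Retnlg, the gene of a resistin-like secreted protein, was 3810 bp wide and the widest of the whole table, ahead of the next at 3337 bp and a median of 573 bp.

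Between KO and WT, 8 of the 56 granule gene peaks were higher in KO and 3 were lower. A peak was called where limma gave an adjusted p below 0.05 on log2(signal + 1), adjusted over all peaks of the table. Of all peaks, 10.6% were called, 6.08% higher and 4.55% lower in KO. The higher peaks belonged to Ctsc, Lyz2, Ngp and Itgb2l, and the lower ones to Padi4, Retnlg and Chil3. The median log2 fold change over the 56 peaks was 0.045, against -0.0019 over the table. Both KO libraries lay above both WT libraries at 18 peaks, as at 28.0% of all peaks, and below them at 13, as at 27.3%. The groups were thus apart at 31 of 56 peaks, against 55.3% of the table. At promoters 2 of 19 were higher and 1 was lower, where 13.5% of all gene promoters were called (7.68% higher, 5.83% lower). Of the 37 distal peaks 6 were higher and 2 were lower, where 8.9% of all distal peaks were called (5.13% higher, 3.77% lower). In these pooled cells, fewer cells with an open site and less opening per cell cannot be told apart. The KO libraries were also the deeper ones, and the part of depth in these results was not tested.

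By class, the primary genes had 2 higher peaks, no lower peak and 10 uncalled ones. Both higher peaks were at Ctsc, and the 4 peaks of Calr and Serpinb1a were all uncalled. The median log2 fold change over the 12 primary peaks was 0.23, with a range of -0.74 to 1.09, and moved to 0.091 without KO replicate 2 and 0.14 without WT replicate 2. Ctsc held 8 of the 12, and the median over the other 4 was 0.12. The later genes had 6 higher, 3 lower and 35 uncalled peaks, with a median of 0.0093. Within them, the specific granule genes held all 6 higher peaks and 1 of the lower ones among 26 peaks (median 0.085). These higher peaks came from 3 of the 12 specific granule genes, with 3 at Lyz2, 2 at Ngp and 1 at Itgb2l. The late cytoplasmic and secreted group held 2 lower peaks among 11 (median -0.24), and none of the 7 peaks of the gelatinase granule and surface protease group was called (median -0.14). Over all peaks 6.08% were called higher and 4.55% lower, so no call among 7 peaks does not set that group apart. Leaving out 1 library at a time changed the calls. Of the 11 called peaks, 4 stayed called without KO replicate 1, 3 without KO replicate 2, 9 without WT replicate 1 and 9 without WT replicate 2. All 11 kept their direction in every alternative run. The groups did not overlap at any of the 11, so only the 3 other scalings could have reversed a direction. Without limma's mean-variance trend, none of the 11 was called, with adjusted p between 0.0763 and 0.316.

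**Figure D2:**
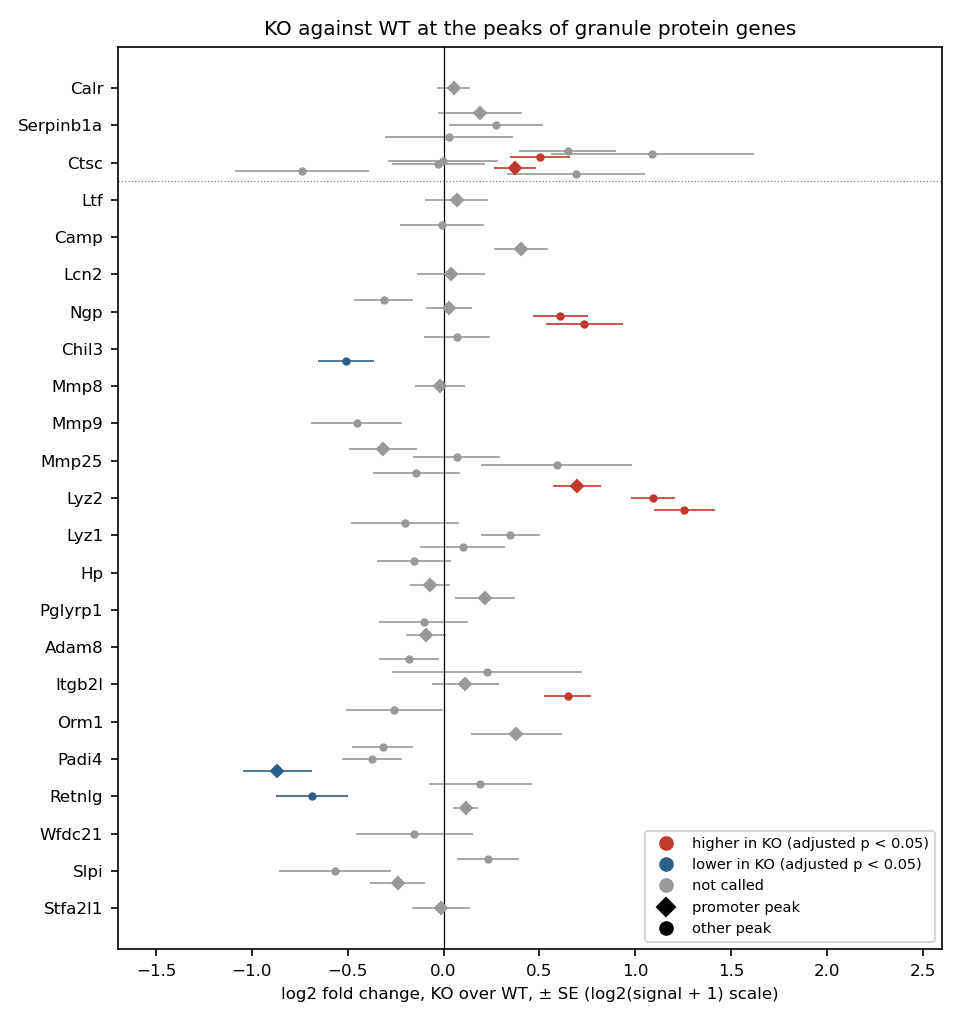
Log2 fold change, KO over WT, with its standard error for each of the 56 peaks, grouped by gene, with primary genes above the dotted line and later genes below it. Red marks the 8 peaks higher in KO, blue the 3 lower ones and grey the 45 uncalled ones, and diamonds are promoter peaks.

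Among the primary genes, Ctsc carried the called peaks. Its promoter peak (chr7:95425469-95427033, mm9, 352 bp upstream of the TSS) had signal 805 and 827 in KO, against 735 and 541 in WT. Both KO libraries lay above both WT libraries, and the WT pair was the more spread. It rose in KO by 0.37 ± 0.11 on the log2 scale (SE, limma adjusted p = 0.0303). The call was lost without KO replicate 1 (adjusted p = 0.146), without KO replicate 2 (0.239) and without WT replicate 2, where the log2 fold change was 0.15 (0.248), and without WT replicate 1 it was 0.59. A distal peak (chr7:95391342-95392197, intergenic, 34834 bp upstream) had 260.5 and 254 in KO, against 163 and 202 in WT. It rose by 0.50 ± 0.16 (limma adjusted p = 0.0394), and the call was lost without KO replicate 1 (0.316), without KO replicate 2 (0.295) and without WT replicate 1 (0.0966). The PU.1 motif shown above lies in the Ctsc promoter, and Elane, Mpo, Prtn3 and Olfm4 share the motif but had no peak to set beside it. Mmp8 and Itgb2l share the motif too, and their promoter peaks were uncalled, with log2 fold changes of -0.019 and 0.11. The other 6 Ctsc peaks, from 76004 bp upstream to 66033 bp downstream of the TSS, were weak and uncalled, with log2 fold changes from -0.74 to 1.09. With scaling to library totals the promoter gave an adjusted p of 0.0747 and the distal peak 0.0688. With cyclic loess they gave 0.195, at a log2 fold change of 0.24, and 0.0567.

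The other primary genes did not pass the test. Calr (chr8:87370310-87371429, 39 bp upstream of the TSS) had 867 and 877 in KO, against 795 and 889 in WT, with a log2 fold change of 0.052 ± 0.087 (limma adjusted p = 0.747). The KO libraries lay within the WT pair. Serpinb1a (chr13:32942772-32943199) had 95.4 and 105 in KO, against 93.9 and 82.1 in WT, a log2 fold change of 0.19 ± 0.22 (limma adjusted p = 0.627). Both KO libraries lay above the WT libraries, by little for the nearer pair. Its 2 distal peaks, 18031 and 23174 bp downstream of the TSS, gave 0.27 and 0.027 and were uncalled.

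The highest pair of log2 fold changes among the 56 peaks was at Lyz2, the gene of the macrophage-type lysozyme, an enzyme that cuts bacterial cell walls. All 3 of its peaks were higher in KO. In intron 1 of 3, 305 bp from the TSS (chr10:116718600-116719447), the signal was 461 and 549 in KO, against 332 and 289 in WT. At the TTS (chr10:116713696-116715020) it was 588 and 641 in KO, against 292 and 283 in WT. The third peak lay 214 bp beyond it in an RLTR12B LTR element (chr10:116712684-116713482), with 307 and 312 in KO, against 141 and 118 in WT. The KO libraries lay far above the WT libraries at all 3, by 1.63, 2.14 and 2.39 times on the linear scale. The log2 fold changes were 0.70 ± 0.12, 1.09 ± 0.11 and 1.26 ± 0.16, with limma adjusted p of 0.000832, 1.67e-06 and 1.82e-05. The peaks at the gene's end kept their call with any 1 library left out, while the intron 1 peak lost it without KO replicate 2 (adjusted p = 0.0953).

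Lyz1, the neighbouring and closely related lysozyme gene, had 3 uncalled peaks. In its 3′ UTR, 4457 bp from the TSS (chr10:116725205-116725729), signal was 91.8 and 114 in KO, against 109 and 83.5 in WT, with a log2 fold change of 0.10 ± 0.22 (limma adjusted p = 0.818). The genotypes overlapped there. The peak 9084 bp upstream had 274 and 326 in KO, against 273 and 202 in WT (log2 fold change 0.35, limma adjusted p = 0.149), and the one 37902 bp upstream gave -0.20. Reads from near-identical copies may be split or dropped by a mapping filter, which is not given in the sources used here, so values at Lyz1, Lyz2, Chil3, Orm1 and Stfa2l1, and in repeats, are less certain.

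At Ngp, whose product is a cystatin-like protein of the specific granules, the peaks at the start and end of the gene differed in outcome. The exon 1 peak (chr9:110322103-110322793, 136 bp from the TSS) had 459 and 439.95 in KO, against 498 and 391 in WT. The KO values lay within the WT pair, and the log2 fold change was 0.027 ± 0.12 (limma adjusted p = 0.914). A peak at the TTS (chr9:110325154-110325972) had 352 and 378 in KO, against 273 and 209 in WT, and its neighbour 151 bp further on (chr9:110326123-110326547) had 208 and 204 in KO, against 158 and 96.03 in WT. Both rose in KO, by 0.61 ± 0.14 and 0.73 ± 0.20 (limma adjusted p = 0.00762 and 0.0188). The first lost its call without KO replicate 1 (0.0596) or KO replicate 2 (0.168). The second lost it without KO replicate 1 (0.147), without KO replicate 2 (0.136) and without WT replicate 2, where the log2 fold change was 0.38 (0.121). The open distal site 4428 bp upstream (chr9:110317692-110318077) had 243 and 219 in KO, against 333 and 246 in WT, a log2 fold change of -0.31 ± 0.15 (limma adjusted p = 0.198). Single WT libraries set this value, which was -0.53 without WT replicate 2 (adjusted p = 0.00895) and -0.095 without WT replicate 1 (0.71). Whether the peaks of Ngp differed from each other in their change was not tested.

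Itgb2l, an integrin beta-2-like gene of maturing granulocytes, passed the test at a peak in intron 1 of 15, while its promoter did not pass. The intron peak (chr16:96661086-96661987, 3685 bp from the TSS) had 467 and 538 in KO, against 348 and 294 in WT. The groups did not overlap, and the peak rose by 0.65 ± 0.12 on the log2 scale (limma adjusted p = 0.00152), with the call lost without KO replicate 2 (0.113). The promoter (chr16:96664870-96665459) had 172 and 189.1 in KO, against 147 and 189.3 in WT, a log2 fold change of 0.11 ± 0.17 (limma adjusted p = 0.723). A distal peak 11591 bp upstream was among the weakest of the set, at 79.1 per kb in WT, and was uncalled.

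The promoters of Camp, Ltf and Lcn2, classical specific granule genes, did not pass the test. Camp (chr9:109751627-109752272), whose product is cleaved into an antimicrobial peptide, had 295 and 315 in KO, against 239 and 221 in WT. Both KO libraries were higher, and the log2 fold change was 0.40 ± 0.14 with a limma adjusted p of 0.0619. It passed without WT replicate 1 (0.0171) and with the libraries centred on their medians (0.0264). Ltf (chr9:110921493-110922138), the iron-binding lactoferrin, had 181.03 and 192 in KO, against 175 and 180.9 in WT, a log2 fold change of 0.068 ± 0.16 (limma adjusted p = 0.832). Lcn2 (chr2:32243094-32243640), which binds bacterial siderophores, had 144 and 168 in KO, against 148 and 154 in WT, a log2 fold change of 0.038 ± 0.18 (limma adjusted p = 0.919). At Ltf the KO libraries lay just above the WT libraries, and at Lcn2 the genotypes overlapped.

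The promoter peaks of 4 further specific granule genes were uncalled as well. Mmp8 (chr9:7558110-7558968, exon 1 of 10), the neutrophil collagenase, had 401 and 441 in KO, against 498 and 365 in WT, with a log2 fold change of -0.019 ± 0.13 (limma adjusted p = 0.946). Hp (chr8:112102505-112103411), haptoglobin, which binds free haemoglobin, had 505 and 553 in KO, against 575 and 536 in WT, with -0.071 ± 0.10 (limma adjusted p = 0.710). Pglyrp1 (chr7:19469649-19470378), a peptidoglycan recognition protein, had 227 and 223 in KO, against 181 and 207 in WT, with 0.22 ± 0.16 (limma adjusted p = 0.397). The KO libraries lay above the WT libraries at Pglyrp1 only among these 3. Orm1 (chr4:63005348-63005647), the acute phase protein orosomucoid, had 94.5 and 152 in KO, against 110.1 and 76.5 in WT, with 0.38 ± 0.24 (limma adjusted p = 0.324). This value rested on single libraries: it was 0.64 without WT replicate 1 (limma adjusted p = 0.0418), 0.72 without KO replicate 1 (0.224), 0.12 without WT replicate 2 (0.752) and 0.041 without KO replicate 2 (0.979).

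The 3 of 56 peaks called lower in KO belonged to Padi4, Retnlg and Chil3, where 4.55% of all peaks were called lower. Padi4 encodes the deiminase that citrullinates histones in the release of extracellular traps. Its promoter (chr4:140329889-140330395, 24 bp upstream of the TSS) had 109 and 139 in KO, against 247 and 207 in WT. This was the lowest log2 fold change of the 56 peaks, -0.87 ± 0.18 (limma adjusted p = 0.00275), and the call was lost without KO replicate 1 (-0.70, adjusted p = 0.102). At its other 2 peaks, 4668 and 14602 bp upstream, both KO libraries also lay below both WT libraries, with uncalled log2 fold changes of -0.37 (limma adjusted p = 0.118) and -0.32 (0.205). The farther one lies in intron 15 of 15 of Padi3.

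At Retnlg, a short peak 1621 bp upstream of the TSS (chr16:48870926-48871275) had 108 and 100.5 in KO, against 170.2 and 166 in WT. It fell by 0.69 ± 0.19 on the log2 scale (limma adjusted p = 0.0199), with the call lost without KO replicate 1 (0.141) or KO replicate 2 (0.251). The wide peak over the gene (chr16:48871803-48875611), 528 bp away, had 1661 and 1662 in KO, against 1547 and 1519.8 in WT, a log2 fold change of 0.12 ± 0.065 (limma adjusted p = 0.264). The nearby sites thus took opposite signs, except with cyclic loess, where the wide peak gave -0.066. The upstream one alone passed, and the difference between them was not tested.

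Chil3 encodes the chitinase-like protein Ym1. Its peak 3224 bp upstream (chr3:105973058-105974355), in an RMER13B LTR element, had 208 and 229 in KO, against 346 and 279.7 in WT. It fell by 0.51 ± 0.15 on the log2 scale (limma adjusted p = 0.0263), with the call lost without KO replicate 1 (0.29), without KO replicate 2 (0.149) and without WT replicate 1 (0.091). A second peak 5195 bp upstream, in an L1Md_F2 LINE, had 163 and 182 in KO, against 173 and 156 in WT (log2 fold change 0.070, limma adjusted p = 0.835), so the genotypes overlapped there.

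**Figure D3:**
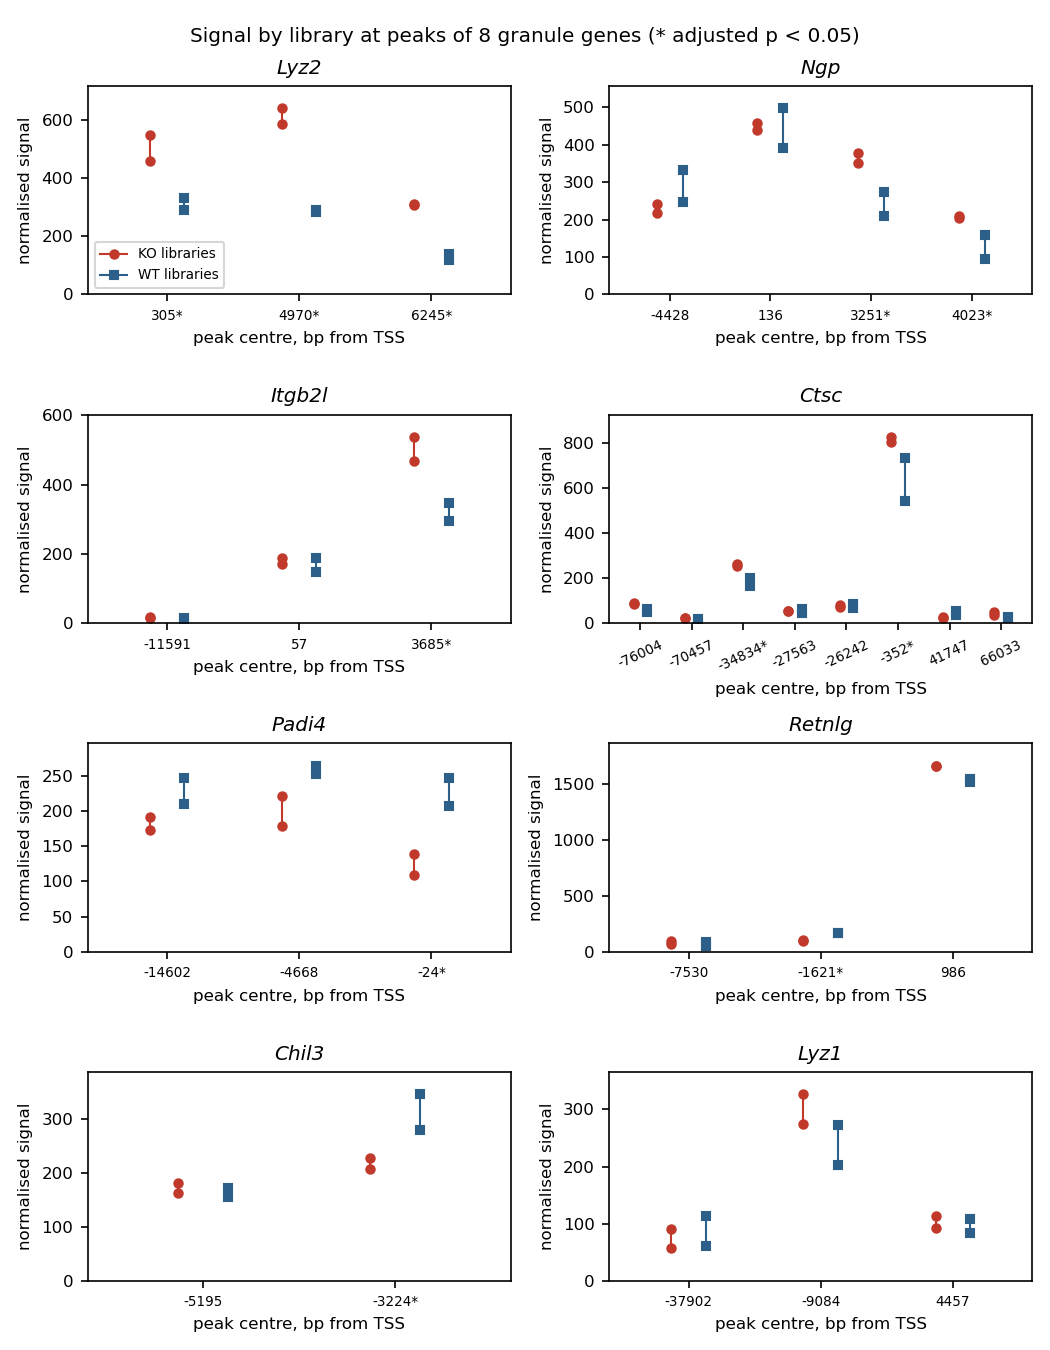
Normalised signal (linear axis from 0) in each library at every peak of 8 granule genes, with KO circles left of WT squares, peaks ordered by their distance from the TSS and asterisks at limma adjusted p below 0.05. At Lyz2 the KO points lie above the WT points at all 3 peaks, at Ngp they do so at 3251 and 4023 bp but not at 136 bp, and at Padi4 they lie below the WT points at all 3.

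The gelatinase granule and surface protease genes had no called peak among 7, where 10.6% of all peaks were called. Mmp9, the gelatinase that names these granules, had 1 peak, 5083 bp upstream (chr2:164768534-164768738), with 61.8 and 75.5 in KO, against 88.1 and 100.2 in WT. Both KO libraries were lower, and the log2 fold change was -0.45 ± 0.24 (limma adjusted p = 0.228). The promoter of Mmp25 (chr17:23781660-23782429), a membrane-anchored protease, had 135 and 186 in KO, against 208 and 186 in WT, with -0.31 ± 0.18 (limma adjusted p = 0.269). The most open of its 3 other peaks, in the 3′ UTR 14840 bp from the TSS, had 80.4 and 83.8 in KO, against 95.4 and 86.3 in WT, with -0.14 ± 0.23 (limma adjusted p = 0.734). The promoter of Adam8 (chr7:147178012-147178822), another membrane protease, had 504 and 535 in KO, against 572 and 534 in WT, with -0.091 ± 0.10 (limma adjusted p = 0.620). At the Mmp25 promoter both KO libraries lay below both WT libraries, 1 of them by less than 1 signal unit, and at Adam8 the genotypes overlapped.

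The remaining late genes were also uncalled. Slpi (chr2:164181849-164182524), a secreted inhibitor of elastase, had 233 and 239 in KO, against 258 and 301 in WT at its promoter, with -0.24 ± 0.14 (limma adjusted p = 0.300) and no overlap between genotypes. Stfa2l1 (chr16:36156434-36157142), a stefin-type cysteine protease inhibitor, had 210.2 and 258 in KO, against 238 and 232 in WT, with -0.014 ± 0.15 (limma adjusted p = 0.965). Wfdc21, which encodes a small WAP-domain protein, had 1 weak peak in intron 1 of 2, with 42.4 and 53.3 in KO, against 41.1 and 68.2 in WT, and -0.15 ± 0.31 (limma adjusted p = 0.796). Across all 45 uncalled peaks, log2 fold changes ran from -0.74 to 1.09 and limma adjusted p from 0.0619 to 0.996.

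**Figure D4:**
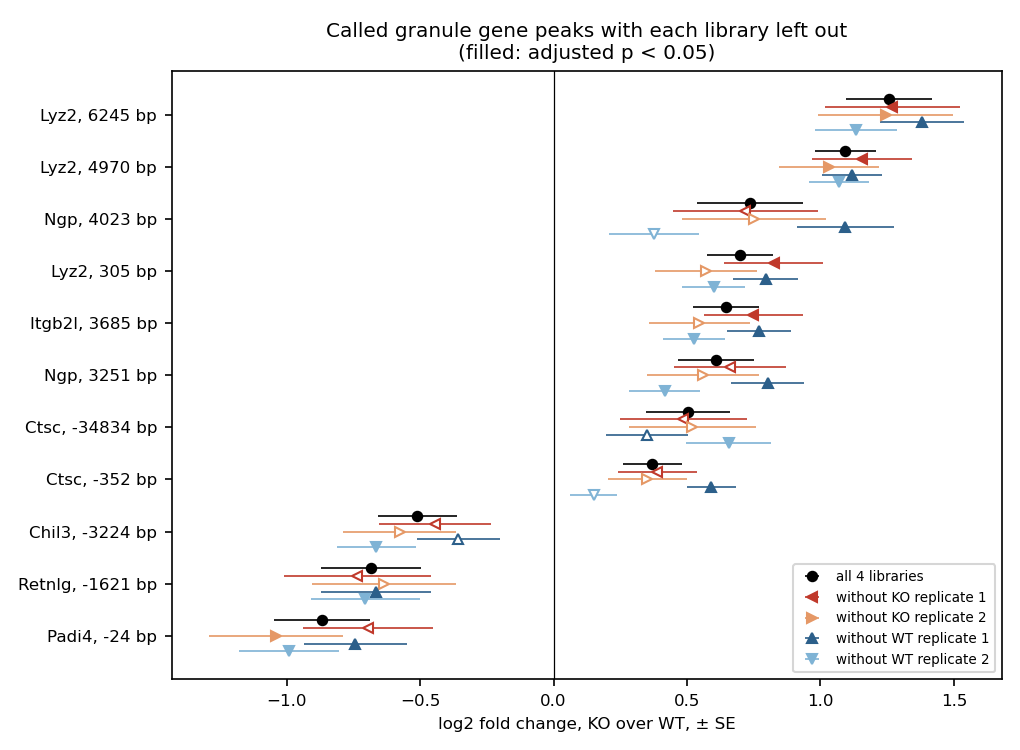
Log2 fold change, KO over WT, with its standard error for the 11 called peaks with all 4 libraries and with each library left out, where filled points have a limma adjusted p below 0.05. All points keep their side of 0, as they must where the groups do not overlap, and the Lyz2 peaks at 4970 and 6245 bp are filled in every row.

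Genes that build, fill and empty granules, or encode lysosomal hydrolases and their inhibitors, were read from a separate list of 41. Of these 36 had a peak, and of their 87 peaks 5 were higher and 4 lower in KO (median log2 fold change -0.020), a share close to the 10.6% called over the table. At their 34 promoters 2 were higher and 3 lower, again close to the 13.5% called over all gene promoters. The sorting genes had 1 higher of 11 promoters. This was M6pr, a mannose 6-phosphate receptor that carries hydrolases to lysosomes, with 1302.5 and 1508 in KO, against 1211 and 1059 in WT (0.31, limma adjusted p = 0.0173). The M6pr call was lost without KO replicate 2 (0.20, adjusted p = 0.476), with total scaling (0.0551) and with cyclic loess, where the log2 fold change was 0.14 (0.32). The release genes had 1 higher and 2 lower of 15 peaks (median log2 fold change -0.14), and at their 9 promoters 2 were lower (median -0.32). At Rab27a, a GTPase that docks granules at the membrane, the promoter was uncalled (log2 fold change -0.11, limma adjusted p = 0.748). The higher peak, named after its values were seen and too weak for the filter at a mean signal above 50, lay 4708 bp upstream. This peak had 60.05 and 52.0 in KO, against 29.4 and 16.7 in WT. It rose by 1.29 on the log2 scale (limma adjusted p = 0.0198), and the call was lost without KO replicate 1 (0.317) or KO replicate 2 (0.239).

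Of those 2, Unc13d, which primes granules for fusion, had 415 and 485 in KO, against 586 and 583 in WT. It fell by 0.38 (limma adjusted p = 0.0256), and the call was lost without KO replicate 1 (0.451) or KO replicate 2 (0.094), and with median centring (0.0561). Stx3, a SNARE of the fusion machinery, had 68.9 and 63.7 in KO, against 89.5 and 160.05 in WT. It fell by 0.84 (limma adjusted p = 0.0311), and the call was lost without KO replicate 1 (0.118), without KO replicate 2 (0.209), with cyclic loess (0.0741) and without WT replicate 2, where the log2 fold change was -0.43 (0.259). Without WT replicate 1 it was -1.26. The hydrolases and inhibitors had 1 higher and 1 lower of 14 promoters. The lower one was Gaa, the lysosomal alpha-glucosidase, with 202 and 206 in KO, against 271.5 and 298 in WT (-0.48, limma adjusted p = 0.0351). Its call was lost without KO replicate 1 (0.283), without KO replicate 2 (0.274), without WT replicate 2 (0.0628) and with median centring (0.0609).

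Markers of neutrophils and of other cells also moved at some sites. The promoter of Csf3r, the G-CSF receptor of the granulocyte lineage, had 96.3 and 89.4 in KO, against 148 and 175 in WT, and fell by 0.79 (limma adjusted p = 0.0112), with the call lost without KO replicate 1 (0.0803) or KO replicate 2 (0.168). Of the 20 peaks at neutrophil markers, 4 were higher and 2 lower in KO, where 6.08% and 4.55% of all peaks were. The higher ones are named after their values were seen. At S100a9 it lay 3109 bp from the TSS (log2 fold change 0.61, limma adjusted p = 5.03e-05). The others lay 2602 and 3813 bp from the TSS of S100a8 (0.49 and 0.68) and 12110 bp from that of Fpr1 (0.53). The lower ones were the Csf3r promoter and a peak 11530 bp from the TSS of S100a9 (-0.74). The summed promoter signal of the neutrophil list (5 promoters) was 1994 and 2020.3 in KO, against 2040 and 1727 in WT. The 22 peaks at progenitor markers held 1 higher and no lower call, against the same 6.08% and 4.55%, and no peak of the monocyte, eosinophil and basophil, B cell, T and NK cell or erythroid lists was called. The part of cell mixture in the granule gene results was not tested.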

How the data were processed

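ATAC-seq was compared between 2 KO and 2 WT libraries, grouped by their titles. Per the submitters' processing notes the authors used MACS2 2.1.0, HOMER, DiffBind, BWA, bcl2fastq 2.16.0, R 3.1.1 and Trimmomatic 0.32 with mm9. The sources used here do not give their settings, the handling of duplicates and multi-mapping reads, any Tn5 shift or how peaks were called and merged. The deposited table gives a normalised signal per library for 23595 consensus peaks with their nearest gene, per the file headers. Every value was a whole multiple of 1 step per library (tolerance 0.001). The steps gave the depths, but the values were tested as signal, since the files do not state that 1 step is 1 read.

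All peaks were fitted with limma 3.58.1 under R 4.3.3 on log2(signal + 1), using moderated variances that follow a trend with mean signal, a two-sided test and Benjamini-Hochberg adjustment over the table. The pseudocount of 1 shrinks fold changes of weak peaks. A filter on mean signal of 1 removed 0 peaks. Alternatives were pseudocounts of 0.5 and 5, no filter, a mean signal above 50, 3 other scalings, no trend, a replicate block and each library left out. Signal per kb divides by the listed peak width, which exceeds end minus start by 2 bp. Coordinates are as deposited.

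The genes, lists and tests were chosen with earlier results of these data known. Peaks given in full were the one nearest each TSS, every called one and, for genes with 4 or more peaks, the distal peak strongest in WT per kb. Distal peaks named for their level alone were chosen after their values were seen. From the list of granule formation genes, those called at a promoter were named, except 1 that is not reported here. Same-numbered libraries did not deviate together and were not treated as pairs. Figures were drawn with matplotlib 3.10.9.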

Additional observations from a re-analysis of the deposited data

How the results depend on the processing

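With 2 libraries per genotype, the calls depended on the variance model and on single libraries. Directions held at the called peaks, where the groups did not overlap and only the other scalings could have reversed them. Leaving out the run without a filter, which equals the reported values because the filter removed 0 peaks, 41 named peaks gave 491 values under 12 alternatives. Of these 63 lost a call, 6 gained one and 23 changed sign, the last among the 369 values of the 9 alternatives that can change a fold change. Without the mean-variance trend, limma called 0 granule peaks higher and 0 lower (10 and 5 at an unadjusted p below 0.05), and 0 higher and 0 lower among granule formation and release genes (8 and 7 unadjusted). With 1 library left out, granule peaks higher in KO numbered 2 to 12 and lower ones 0 to 5 (limma, 3 lower at an unadjusted p below 0.05 without KO replicate 1, where none was called). The primary median log2 fold change ran from 0.091 without KO replicate 2 to 0.32 without KO replicate 1. Among granule formation and release genes, whose alternatives were added after seeing the data, 0 to 8 peaks were higher and 0 to 10 lower with 1 library left out (4 and 7 at an unadjusted limma p below 0.05 without KO replicate 2, where none was called), 1 was higher with total scaling and 2 were lower with median centring.

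Scaling moved the balance of calls over the table, from 1434 higher and 1074 lower to 2248 and 777 with median centring (median log2 fold change 0.065), 879 and 1319 with total scaling (-0.056) and 807 and 888 with cyclic loess, and to 0 and 22 without the trend. Sign changes were at uncalled peaks. With total scaling, Calr gave -0.0027, Lcn2 -0.017 and Ngp at 136 bp -0.028. With cyclic loess, Calr gave -0.089, Ngp at 136 bp -0.064, Retnlg at 986 bp -0.066 and the S100a8 promoter -0.050. With median centring, Mmp8 gave 0.048 and Stfa2l1 0.052. With 1 library left out, log2 fold changes ran from -0.028 to 0.13 at Calr, -0.072 to 0.15 at Lcn2, -0.15 to 0.20 at Ngp 136 bp, -0.24 to 0.20 at Mmp8, -0.087 to 0.29 at Lyz1 4457 bp, -0.068 to 0.30 at the Itgb2l promoter, -0.51 to 0.21 at Wfdc21, -0.16 to 0.13 at Stfa2l1 and -0.011 to 0.18 at the S100a8 promoter. The causes were not tested. Undivided by length, the median WT promoter signal was 638 for primary and 233 for later genes, and the value for all genes is not given here. With annotated promoters alone it was 321 per kb for later genes.

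Same-numbered libraries did not deviate together (r = -0.039 across peaks, which are not independent). With the replicate number as a block, 8 granule peaks were higher and 3 lower, and 1656 and 1279 over the table, and no call of a granule peak was lost.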

Other observations

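A difference at the end of the gene, chosen for description after its values were seen, was common to Lyz2 and Ngp. The 3 granule gene peaks annotated at a TTS, 1 at Lyz2 and 2 at Ngp, were all higher in KO. The Ngp pair lies 151 bp apart, and Lyz2 was also higher at its intron 1 peak, so its change was not particular to the gene's end. Over the whole table, 22 of 334 TTS peaks were higher (6.59%) and 17 lower, and without Lyz2 and Ngp 19 of 331 were higher (5.74%), with a median log2 fold change of -0.11. The 2 peaks of granule genes annotated in a 3′ UTR, at Lyz1 and Mmp25, were uncalled.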
